A study of Mus musculus with 88 samples.

Results

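The blood-brain barrier is made by the endothelial cells that line the brain's capillaries, and the 10 genes described here, Cldn5, Ocln, Tjp1, Pecam1, Cdh5, Flt1, Slco1a4, Abcb1a, Slc2a1 and Mfsd2a, encode its junction proteins, a receptor and its transporters. They were chosen by name as known genes of the barrier, with no value in the rule, though earlier results of these data were known, and each was found by its Ensembl identifier in all 3 expression tables of the series, among 18946 genes of the medial prefrontal cortex (mPFC), 48795 genes of the bed nucleus of the stria terminalis (BNST) and 19559 genes of the ventral hippocampus (vHPC). The study sequenced ribosomal RNA-depleted total RNA from these regions in 88 libraries of 81 male mice, 8 weeks old at dissection, and 7 of the mice gave tissue of the mPFC as well as of the vHPC. The strains, by the labels, were C57BL/6Crl (B6) and DBA/2Crl (D2), written C57BL/6NCrl and DBA/2NCrl in the study's text, and no mouse carried an engineered allele or received a drug. Mice were either undefeated controls or had gone through chronic social defeat stress (CSDS), repeated attacks by an aggressor mouse, and were killed 6 to 8 days after the last defeat. Defeated mice were classed as susceptible or resilient by their social interaction ratio, the time near an unfamiliar mouse relative to the time near an empty cage, set against controls of their own strain. For B6 there were 6 controls, 6 resilient and 6 susceptible animals in the mPFC, 5 of each kind in the BNST, and 6 controls, 8 resilient and 3 susceptible animals in the vHPC. For D2 there were 6 controls and 8 susceptible animals in the mPFC, 5 controls, 3 resilient and 5 susceptible animals in the BNST, and 6 controls and 5 susceptible animals in the vHPC.

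Brain endothelial cells are joined by tight junctions that close the path between cells, and they carry nutrients in and drugs and toxins out through transporters. Cldn5 encodes claudin-5, the main claudin of these junctions, which makes them tight to small molecules, Ocln encodes occludin, a second membrane protein of the tight junction, and Tjp1 encodes ZO-1, the scaffold that ties junction proteins to actin in endothelium and in many other cells. Pecam1 and Cdh5 encode PECAM-1 and VE-cadherin, adhesion proteins of endothelial contacts, and Flt1 encodes VEGF receptor 1. Slco1a4 encodes an organic anion transporter, Abcb1a a P-glycoprotein drug efflux pump, Slc2a1 the glucose transporter GLUT1, and Mfsd2a the carrier of docosahexaenoic acid as lysolipid, which also keeps transcytosis low. Loss of claudin-5 from vessels of stressed mice has been studied before, so the junction genes were followed here across region, strain and phenotype.

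Ocln, Slco1a4 and Cldn5 had the lowest adjusted p of the members in susceptible against control B6 mice of the vHPC, and the 250 bases upstream of a start of each are shown because they lie where transcription begins (RefSeq, GRCm38.p6, written 5′ to 3′ on the strand of the gene, with matches to the searched motifs on either strand in capitals).
Cldn5, chr16:18776597-18776846, plus strand: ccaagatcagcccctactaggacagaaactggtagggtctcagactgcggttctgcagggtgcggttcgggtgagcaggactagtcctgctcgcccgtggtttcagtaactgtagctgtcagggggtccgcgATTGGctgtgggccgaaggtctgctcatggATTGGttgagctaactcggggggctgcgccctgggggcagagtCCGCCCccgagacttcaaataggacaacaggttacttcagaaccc
Ocln, chr13:100552719-100552968, minus strand: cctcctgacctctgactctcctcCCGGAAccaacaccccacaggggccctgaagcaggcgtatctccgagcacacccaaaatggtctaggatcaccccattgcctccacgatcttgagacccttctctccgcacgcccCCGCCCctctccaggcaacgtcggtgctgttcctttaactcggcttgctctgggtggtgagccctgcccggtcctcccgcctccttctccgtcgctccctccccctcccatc
Slco1a4, chr6:141856221-141856470, minus strand: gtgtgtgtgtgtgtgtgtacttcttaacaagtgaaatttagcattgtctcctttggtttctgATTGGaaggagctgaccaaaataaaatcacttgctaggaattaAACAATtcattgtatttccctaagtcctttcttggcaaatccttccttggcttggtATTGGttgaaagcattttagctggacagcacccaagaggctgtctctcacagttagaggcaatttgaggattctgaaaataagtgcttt
Of the 10 members, 8 had such an upstream sequence. The motifs searched were a TCF/LEF site (CTTTGA, in 13.8% of 32851 promoters), an ETS site (CCGGAA, 12.0%), a GC box (GGGCGG, 32.7%), a CCAAT box (CCAAT, 33.8%), a TATA box (TATAAA, 12.4%) and a SOX site (AACAAT, 9.4%). The Cldn5 window held 2 CCAAT boxes and 1 GC box, the Ocln window shown 1 ETS site and 1 GC box, and the Slco1a4 window 2 CCAAT boxes and 1 SOX site. A second annotated start of Ocln lies downstream, and its window, not shown, held 1 GC box and 1 CCAAT box and no ETS site. A match describes letters and not a bound site. The Cldn5 gene itself lies on chromosome 16 from 18776847 to 18778262, on the plus strand, and its annotated exons cover 1416 bases without an intron between them. Its transcript is rich in G and C (60.5%), while that of Ocln holds 42.0%, that of Slco1a4 40.3% and the median over all genes is 48.8%.

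The 3 tables came from different library kits (ScriptSeq v2 in the mPFC, Ovation in the BNST, Nextera in the vHPC), so levels were set side by side between regions and not tested. All 10 endothelial marker genes of a fixed list averaged at least 1 CPM (reads of a gene scaled to the library's total) in every region. BNST libraries held 11825757 to 25793910 counted reads, with a median of 15273698, and the depth of the mPFC and vHPC libraries cannot be read from their log2 CPM values. In the vHPC, no library preparation set of B6 held both control and defeated mice, and all 6 B6 controls were in sequencing set 1 while 7 of 8 B6 resilient mice were in set 2. These are the sets as the study lists them, and the authors had adjusted the values for them before deposit. Which groups that adjustment kept is not given, and how far the vHPC differences and their p-values depend on it was not tested. In the mPFC, 4 of 5 library sets of each strain held both controls and defeated mice, and in the BNST both library sets did. Reads of D2 mice were aligned to GRCm38, which is built from a B6 mouse, and the part of this in strain differences was not tested. Slco1a4 and Abcb1a have close paralogs (Slco1a1, Slco1a5, Slco1a6 and Abcb1b), so reads shared between copies leave their levels less certain.

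Per kilobase of exon, the order of the members differed between the 3 tables. In B6 controls of the vHPC, Cldn5 stood first at a level of 5.75 ± 0.12 log2 CPM per kb (SD, n = 6). In B6 controls of the mPFC Cldn5 had 3.75 ± 0.23 (SD, n = 6). It did not differ beyond its spread from its neighbours in that order, Slco1a4 at 3.77 ± 0.07 and Slc2a1 at 3.74 ± 0.11. In B6 controls of the BNST it had 2.28 ± 0.22 (SD, n = 5). Averaged over all libraries of a region, of both strains and all phenotypes, Cldn5 stood above 96.1% of genes in the vHPC. That share was 75.3% in the mPFC and 49.6% in the BNST.

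The scaffold gene Tjp1 had a level of 4.51 log2 CPM per kb in the mPFC and 4.77 in the BNST, the highest of the members in both, and 4.24 in the vHPC. Occludin and VE-cadherin closed the order, Cdh5 last in the mPFC at 0.95 and in the vHPC at 0.85, and Ocln last in the BNST at 0.17 ± 0.43 (SD, n = 5). Among the transporters, Slc2a1 had the highest level in the BNST (3.96) and the vHPC (4.84), and 3.74 in the mPFC. Levels on this scale follow the kit and the annotated exons as well as the tissue, and their parts were not tested.

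**Figure D1:**
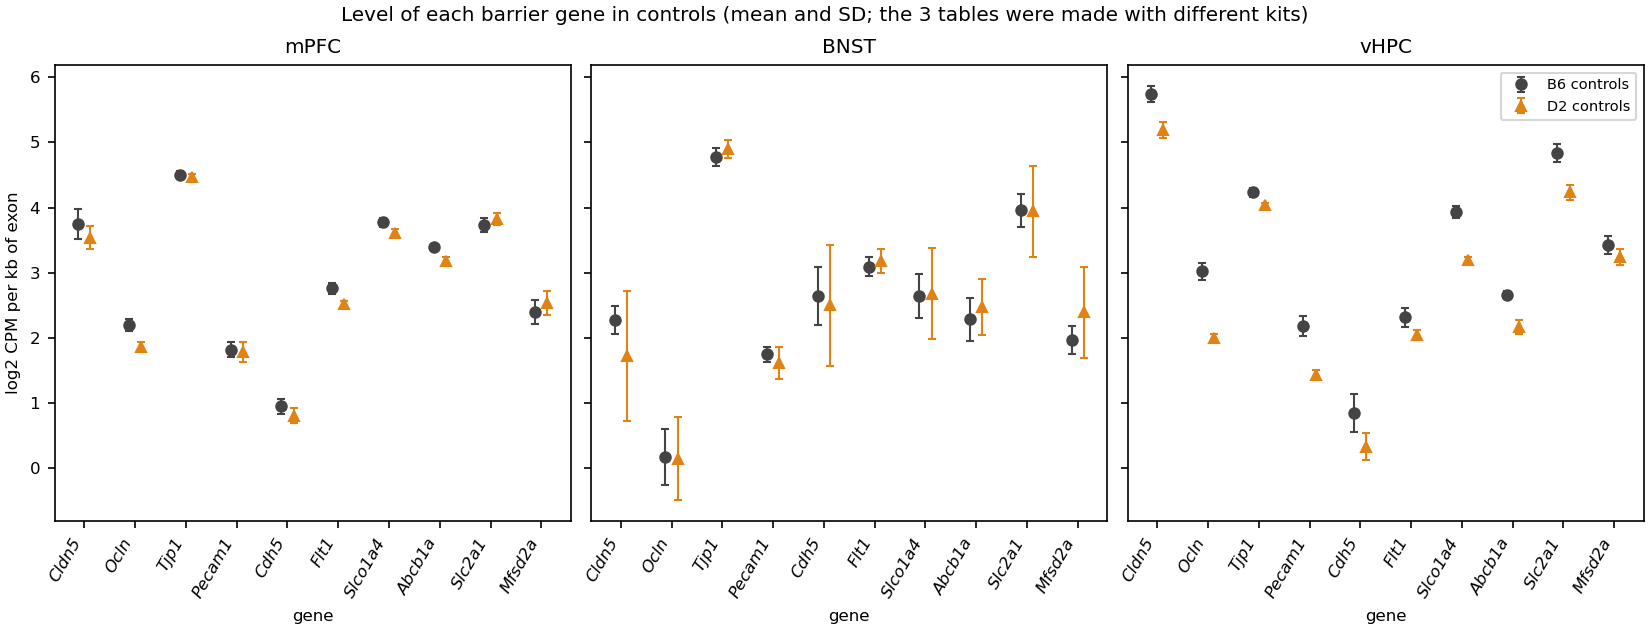
Level of each of the 10 genes in log2 CPM per kb of exon (vertical axis) in B6 and D2 controls of the mPFC, BNST and vHPC, as mean and SD over mice. Cldn5 stands highest in the vHPC panel, where B6 controls average 5.75, and near the middle of the BNST panel, at 2.28.

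In the vHPC, 6 of the 10 genes were lower in susceptible than in control B6 mice (limma, Benjamini-Hochberg adjusted over all genes, adjusted p under 0.05), where 20.1% of all 19559 genes were called lower. They were the junction genes Ocln, Cldn5 and Pecam1 and the transporters Slco1a4, Slc2a1 and Abcb1a, and in each of them all 3 susceptible mice lay below all 6 controls. The share of all genes without overlap was not counted, here or in later comparisons, so a lack of overlap only describes these values. The median difference over the 10 members was -0.39 on the log2 scale, against -0.01 over all genes. The tissue is bulk, so fewer endothelial cells, less RNA per endothelial cell and differences in other cells that hold these RNAs cannot be told apart.

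Occludin RNA showed the largest difference of the members in this comparison. Ocln was at 4.97 to 5.28 log2 CPM in B6 controls (median 5.10) and at 4.35, 4.32 and 4.38 in the susceptible mice. The susceptible mice lay close together and well under the lowest control, and Ocln fell by 0.75 on the log2 scale (SE 0.07, adjusted p = 4.05e-09, limma), or by 40.5%. Claudin-5 RNA was at 6.092 to 6.379 log2 CPM in B6 controls (median 6.282) and at 5.626, 5.722 and 5.762 in the susceptible mice. The groups did not overlap, and Cldn5 fell by 0.54 (SE 0.10, adjusted p = 0.000263, limma), or by 31.4%.

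PECAM-1 was the third junction gene that passed. Pecam1 was at 4.64 to 5.04 log2 CPM in controls (median 4.84) and at 4.25, 4.26 and 4.45 in susceptible mice, and fell by 0.51 (SE 0.12, adjusted p = 0.00135, limma). The adhesion gene Cdh5 and the scaffold gene Tjp1 did not pass. Cdh5 spread over 2.47 to 3.25 log2 CPM in controls and had 2.55, 3.18 and 2.96 in the susceptible mice, a difference of -0.02 (95% interval -0.58 to 0.53, adjusted p = 0.95, limma). A fall of the size seen in Ocln lies outside this interval, while falls of the size seen in Cldn5 and Pecam1 lie inside it. Tjp1 was at 7.162, 7.179 and 7.191 in susceptible mice, inside the control range of 7.12 to 7.30, with a difference of -0.02 (95% interval -0.15 to 0.10, adjusted p = 0.784). The VEGF receptor Flt1 differed by 0.09 (95% interval -0.14 to 0.33, adjusted p = 0.54) and its groups overlapped.

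Of the transporters, the organic anion carrier moved most. Slco1a4 was at 6.45 to 6.71 log2 CPM in B6 controls (median 6.64) and at 6.05, 5.94 and 6.07 in susceptible mice. All 3 susceptible mice were low, and Slco1a4 fell by 0.60 (SE 0.06, adjusted p = 4.18e-08, limma), or by 33.9%. GLUT1 RNA followed. Slc2a1 was at 6.51 to 6.82 in controls (median 6.62) and at 5.98, 6.20 and 6.26 in susceptible mice, and fell by 0.50 (SE 0.10, adjusted p = 0.000351, limma). The efflux pump gene Abcb1a was at 5.03 to 5.20 in controls and at 4.71, 4.86 and 4.93 in susceptible mice, and fell by 0.28 (SE 0.08, adjusted p = 0.00642, limma). Without the first susceptible mouse this difference was -0.22 with an adjusted p of 0.0618. The lysolipid carrier Mfsd2a differed by -0.24 and missed the threshold (SE 0.10, adjusted p = 0.0538), with overlapping groups; it passed at 0.0243 without the sixth control.

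**Figure D2:**
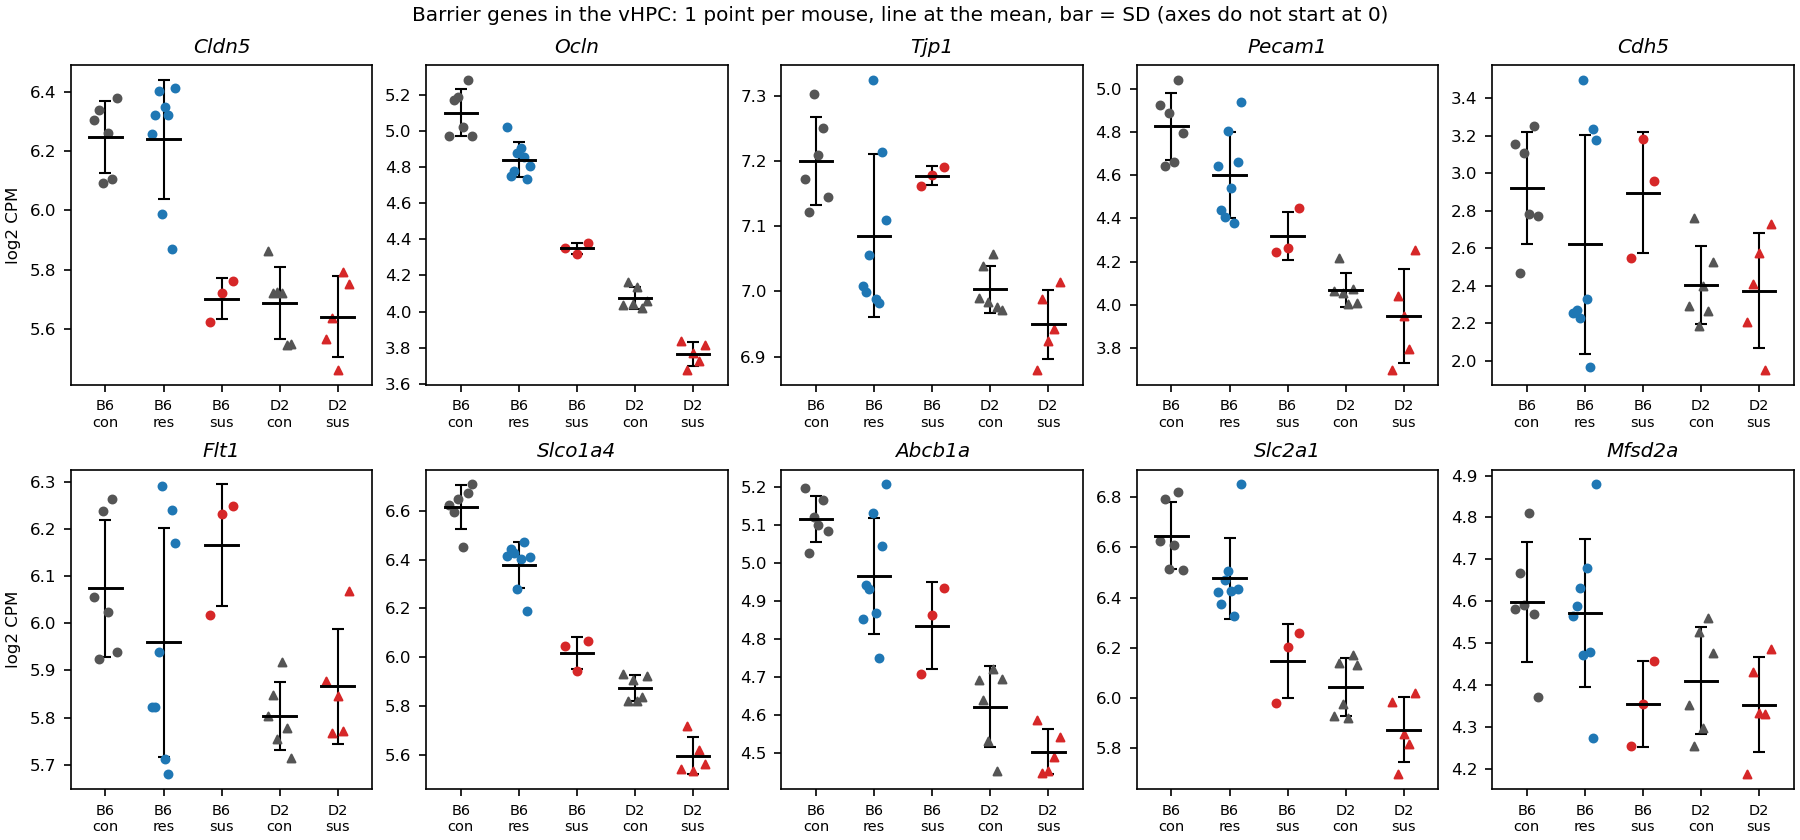
Log2 CPM of each of the 10 genes in the vHPC (vertical axis, not starting at 0), with 1 point per mouse, a line at the group mean and a bar for the SD, by strain and phenotype. The 3 susceptible B6 mice lie below all B6 controls for Ocln, Cldn5, Pecam1, Slco1a4, Slc2a1 and Abcb1a, and inside the control range for Tjp1.

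Because the library sets and groups of B6 coincide in the vHPC, the comparison was repeated with these sets in the model. With sequencing set as a covariate, and with the libraries of sequencing set 1 alone, the same 6 genes passed. B6 controls were in library sets 5, 6 and 9 and susceptible B6 mice in sets 1, 8 and 10, so no set held both. A fit with library set as a covariate links them only through libraries of other groups and holds no comparison within a set. With library set as a covariate Ocln alone passed (-0.90, SE 0.20, adjusted p = 0.0405, limma, against 7.78e-10 to 0.0405 over its 9 alternatives). The other 5 genes kept their sign in that fit with larger errors, Cldn5 at -0.87 (SE 0.29, adjusted p = 0.224, against 9.17e-05 to 0.224 over its 9 alternatives), Slc2a1 at -0.85 (SE 0.28), Pecam1 at -0.74 (SE 0.29), Slco1a4 at -0.53 (SE 0.18) and Abcb1a at -0.27 (SE 0.24).

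**Figure D3:**
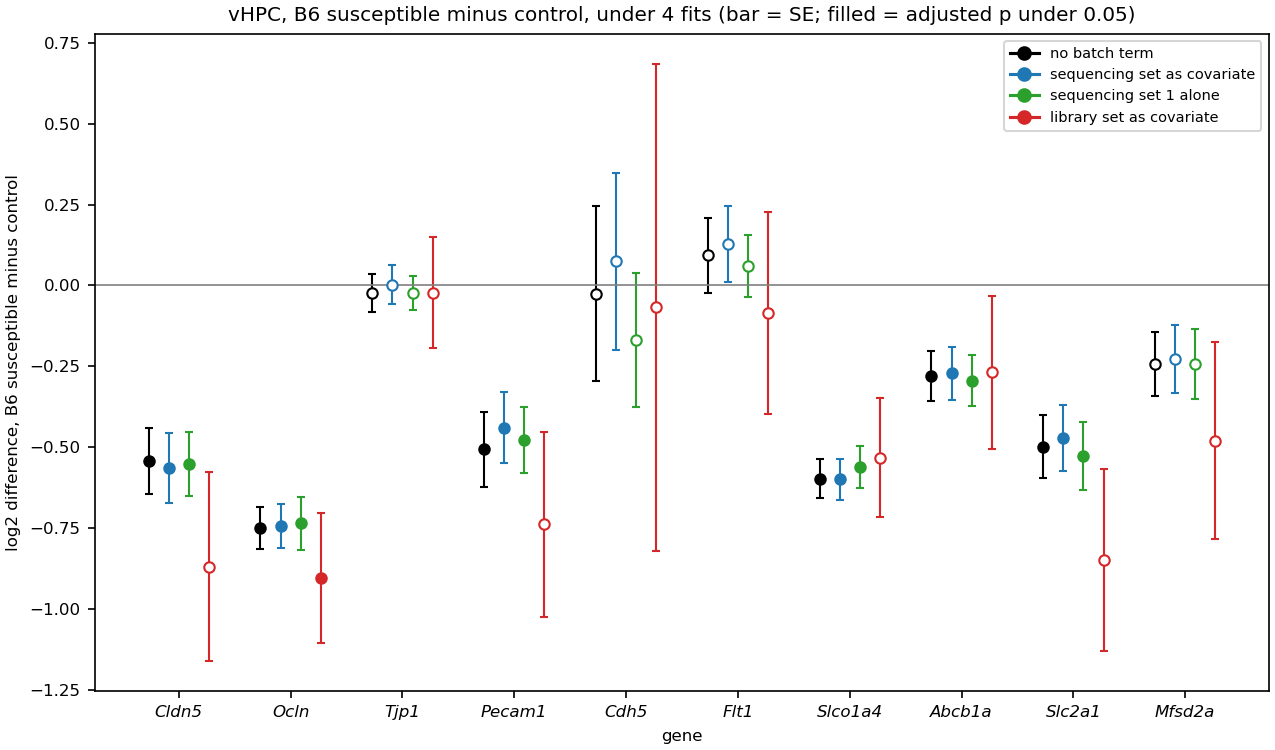
Log2 difference of each gene between susceptible and control B6 mice in the vHPC (vertical axis) under 4 fits, with bars for the SE and filled points for an adjusted p under 0.05. With library set in the model the bars widen and only Ocln, at -0.90, stays filled.

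Markers of other cell types moved in the same comparison, and their part in the barrier genes' differences was not tested. Of all genes, 20.1% were called lower and 20.5% higher. Of 8 oligodendrocyte markers 8 fell, with a median of -0.77, and their summed level was 1952.7 to 2230.25 CPM in susceptible B6 mice against 3300.5 to 3715.82 CPM in controls. Of 8 pericyte markers 7 fell, of 4 smooth muscle markers 3 fell, and of 6 choroid plexus markers 3 fell with a median of -3.02, their summed level being 24.24 to 79.1 CPM in susceptible mice and 38.75 to 2118.25 CPM in controls. Of 6 neuron markers 4 rose. Of 10 endothelial markers, 4 of which are members, 7 fell, and their summed level was 255.71 to 284.94 CPM in susceptible B6 mice and 320.34 to 357.35 CPM in controls, with no overlap.

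Resilient B6 mice differed less from the same 6 controls, and the controls they share make the 2 comparisons dependent. In the vHPC 2 of the 10 genes were lower in resilient mice, against 5.9% of all genes. Ocln was at 4.73 to 5.02 log2 CPM in the 8 resilient mice (median 4.83), all but 1 of them below the lowest control, and fell by 0.26 (SE 0.05, adjusted p = 0.000837, limma). Slco1a4 was at 6.19 to 6.47 (median 6.41), again with all but 1 below the lowest control, and fell by 0.24 (SE 0.05, adjusted p = 0.000806, limma). Cldn5 did not differ detectably, at 5.87 to 6.41 log2 CPM (median 6.32), with a difference of -0.01 (95% interval -0.17 to 0.16, adjusted p = 0.972). Over its 9 alternatives, which include those with batch terms, the Cldn5 difference ran from -0.377 to -0.001. All 10 differences were below 0, 6 of them at an unadjusted p under 0.05, which 24.2% of all genes reached. Without the eighth resilient mouse 5 genes passed, with Abcb1a, Pecam1 and Slc2a1 added at adjusted p of 0.0352, 0.0364 and 0.025. With sequencing set as a covariate Slco1a4 passed (-0.24, adjusted p = 0.0346, against 0.00032 to 1 over its 9 alternatives) and Ocln did not (-0.24, adjusted p = 0.0568, against 0.00064 to 1). With library set as a covariate, and in sequencing set 1 alone, which holds a single resilient B6 mouse, none of the 10 passed limma. Ocln was then at -0.37 (SE 0.21) and -0.22 (SE 0.11), and Slco1a4 at -0.12 (SE 0.19) and -0.34 (SE 0.09).

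Set directly against resilient mice, susceptible B6 mice had lower levels of 4 of the 10 genes, where 13.6% of all genes were called lower. Cldn5 was lower by -0.54 (SE 0.10, adjusted p = 0.00177, limma), Ocln by -0.49 (SE 0.06, adjusted p = 0.000135), Slco1a4 by -0.36 (SE 0.06, adjusted p = 0.000702) and Slc2a1 by -0.33 (SE 0.09, adjusted p = 0.0145). In all 4, the 3 susceptible mice lay below all 8 resilient mice. Slc2a1 was lost without the first susceptible mouse (-0.24, adjusted p = 0.104). With library set as a covariate, and in sequencing set 1 alone, none of the 10 genes passed limma in this comparison. In these fits Ocln was at -0.53 (SE 0.10) and -0.52 (SE 0.12), Cldn5 at -0.49 (SE 0.15) and -0.29 (SE 0.15), Slco1a4 at -0.41 (SE 0.09) and -0.22 (SE 0.10), and Slc2a1 at -0.35 (SE 0.14) and -0.39 (SE 0.16). Slc2a1 also missed with only the groups compared in the fit (adjusted p = 0.0712, against 0.00863 to 0.262 over its 9 alternatives), and Pecam1 (-0.28, adjusted p = 0.0575) passed under 3 of 9 alternatives. For Ocln and Slco1a4 the resilient mean lay between those of control and susceptible mice. For Cldn5 the resilient mean of 6.24 was next to the control mean of 6.25 in the deposited values. Under the 9 alternatives the Cldn5 difference between resilient and control mice was as large as -0.377.

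In D2 mice of the vHPC 2 of the 10 genes were lower in susceptible mice than in controls, against 2.74% of all genes, and they were Ocln and Slco1a4. Ocln was at 4.02 to 4.16 log2 CPM in D2 controls (median 4.05) and at 3.83, 3.68, 3.77, 3.73 and 3.82 in D2 susceptible mice. No susceptible mouse reached the lowest control, and Ocln fell by 0.31 (SE 0.06, adjusted p = 0.000978, limma). Slco1a4 was at 5.82 to 5.93 in D2 controls (median 5.87) and at 5.54, 5.72, 5.54, 5.62 and 5.57 in susceptible mice, again without overlap, and fell by 0.28 (SE 0.05, adjusted p = 0.0012, limma). Cldn5 was at 5.57, 5.64, 5.46, 5.79 and 5.75 in D2 susceptible mice and at 5.55 to 5.86 in D2 controls. These groups overlapped, with a difference of -0.05 (95% interval -0.23 to 0.14, adjusted p = 0.838). With library set as a covariate, and in sequencing set 1 alone, which holds 1 susceptible D2 mouse, none of the 10 passed limma. Ocln was then at -0.26 (SE 0.15) and -0.25 (SE 0.11), and Slco1a4 at -0.36 (SE 0.13) and -0.32 (SE 0.09).

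Whether the difference between susceptible and control mice varied with strain was tested as an interaction. Ocln alone passed, where 0.557% of all genes passed in the same direction, with the change in D2 smaller than in B6 by 0.44 (SE 0.09, adjusted p = 0.012, limma). It did not pass without the first susceptible B6 mouse (0.44, adjusted p = 0.0639), with library set as a covariate or in sequencing set 1 alone. Cldn5 had the largest interaction of the members, 0.50 (SE 0.14, 95% interval 0.22 to 0.78), and missed the threshold at an adjusted p of 0.0832. Over its 9 alternatives it ran from 0.48 to 1.039 and passed under 1, so the strains are not shown to differ in Cldn5. Slco1a4 had 0.32 (SE 0.08, adjusted p = 0.0513) and passed under 5 of 9 alternatives, and without the fourth B6 control (adjusted p = 0.024).

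Undefeated mice of the strains differed in most barrier genes of the vHPC. Of the 10 genes 9 were lower in D2 than in B6 controls, where 29.1% of all genes were called lower. The median difference of the members was -0.54, against 0.01 over all genes. These comparisons use the same control libraries as those of defeat. B6 controls were in library sets 5, 6 and 9 and D2 controls in sets 3, 7, 8 and 10. No set held controls of both strains, so strain and library set cannot be told apart here.

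Occludin differed most, with all D2 controls (4.02 to 4.16 log2 CPM) below all B6 controls (4.97 to 5.28), a difference of -1.02 (SE 0.05, adjusted p = 1.02e-14, limma). Pecam1 was lower in D2 by -0.76 (SE 0.09, adjusted p = 1.88e-07), at no more than 4.22 log2 CPM against 4.64 to 5.04. Cldn5 was lower by -0.56 (SE 0.08, adjusted p = 3.66e-06), at 5.55 to 5.86 against 6.09 and above, and the groups did not overlap. The D2 control mean of Cldn5, 5.69, lay within the range of the 3 susceptible B6 mice, 5.63 to 5.76, and those groups were not tested against each other. Tjp1 differed by -0.20 (adjusted p = 0.00126) and Flt1 by -0.27 (adjusted p = 0.0156), both without overlap. Cdh5 passed with overlapping groups (-0.52, SE 0.22, adjusted p = 0.046), and left the calls without any 1 of 9 of the 12 control mice, at adjusted p of 0.05 to 0.0988.

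Transporters differed as well. Slco1a4 was lower in D2 by -0.74 (SE 0.05, adjusted p = 1.15e-12, limma), Slc2a1 by -0.60 (SE 0.08, adjusted p = 4.99e-07) and Abcb1a by -0.49 (SE 0.06, adjusted p = 3.33e-07), all 3 without overlap. Mfsd2a had -0.19 (95% interval -0.36 to -0.02, adjusted p = 0.05) and was not called. A fit with library set as a covariate links the controls of the strains only through libraries of other groups. In it 4 of the 10 passed, Ocln, Pecam1, Slco1a4 and Slc2a1. Beside this, 8 of 8 oligodendrocyte markers and 6 of 6 choroid plexus markers were lower in D2 controls, and the oligodendrocyte sum was 1319.33 to 2056.67 CPM there. Summed endothelial markers were at 226.13 to 252.41 CPM in D2 and 320.34 to 357.35 CPM in B6 controls. Of these 10 markers 4 are members (Cldn5, Pecam1, Cdh5 and Flt1), so this sum partly repeats the values above. Pericyte markers were at 233.16 to 257.04 against 308.71 to 349.65 CPM, and smooth muscle markers at 24.11 to 38.44 against 54.39 to 86.87 CPM. None of these marker sums overlapped. Their part in the strain difference was not tested.

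**Figure D4:**
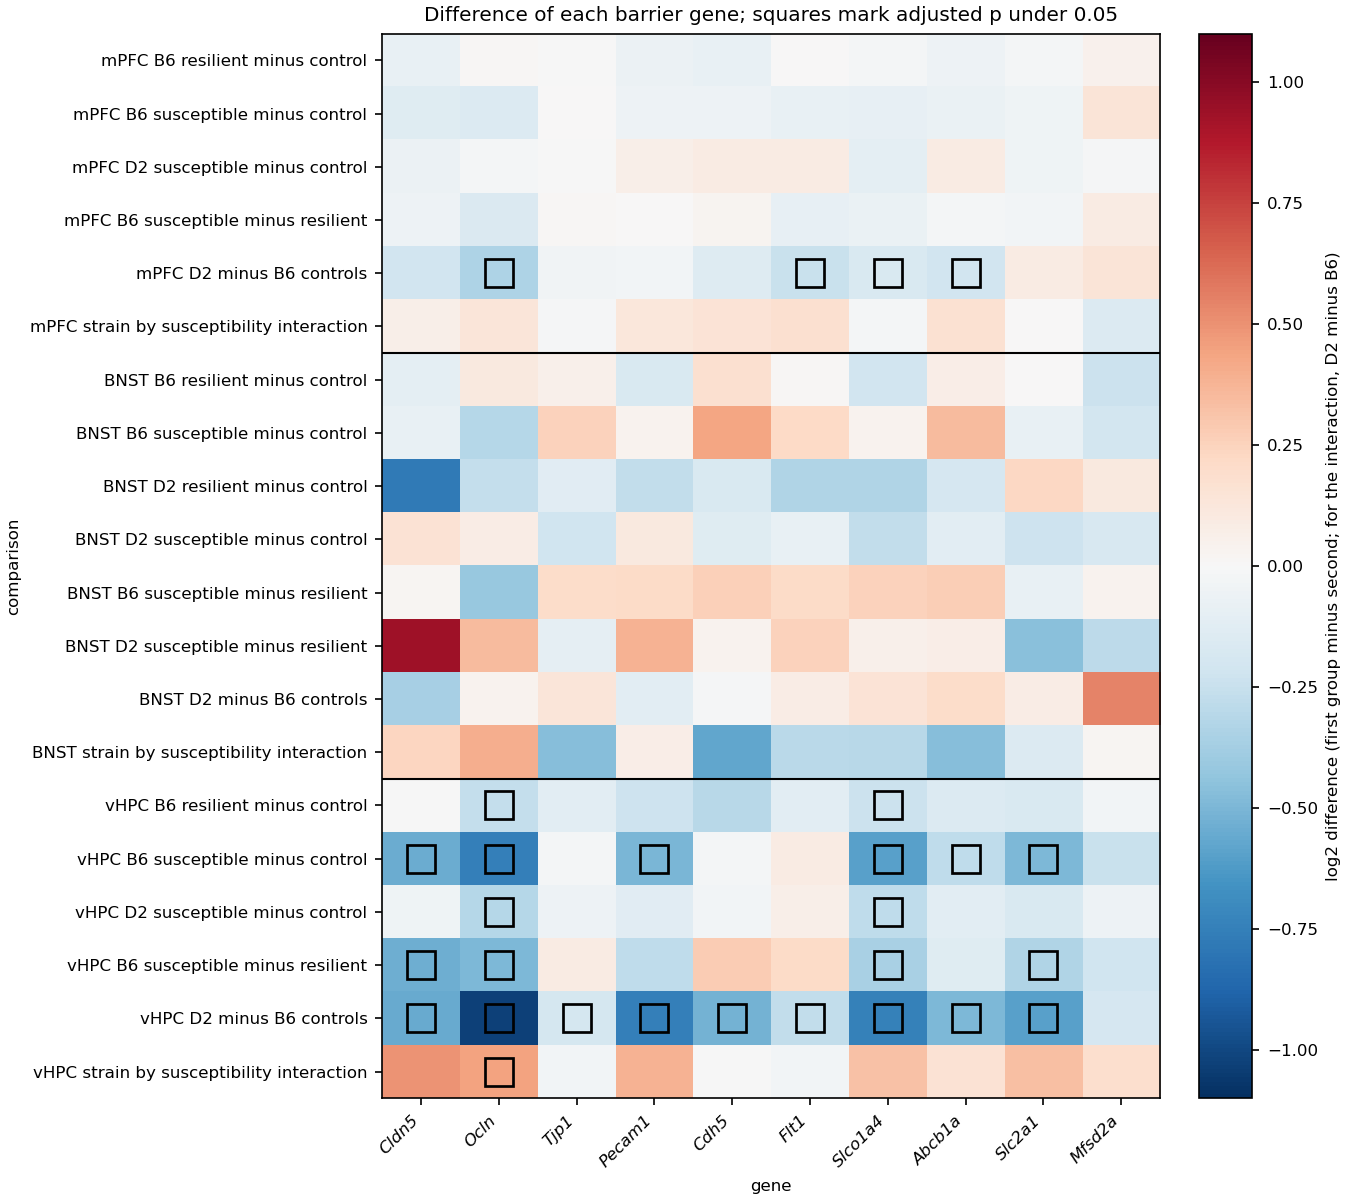
Log2 difference of each of the 10 genes (horizontal axis) in each of the 20 comparisons (vertical axis), as a color scale, with squares where the adjusted p was under 0.05. Calls stand in the vHPC rows and in the D2 against B6 row of the mPFC, and the BNST rows hold none.

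In the mPFC, none of the 10 genes passed limma in any comparison of defeated mice. Resilient against control B6 mice gave 0 genes (0% of all genes, and 0 members at an unadjusted p under 0.05, which 3.86% of all genes reached), and susceptible against control B6 mice 0 (2.22% of all genes, and Ocln alone unadjusted, with 18.2% of all genes). Susceptible against control D2 mice gave 0 (0% of all genes, and Slco1a4 alone unadjusted, with 3.87% of all genes), and susceptible against resilient B6 mice 0 (2.02% of all genes, and Ocln alone unadjusted, with 19.6% of all genes). The interaction gave 0 (0% of all genes, and Flt1 and Abcb1a unadjusted, with 9.32% of all genes). No other tool was run on the mPFC values.

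Claudin-5 in the mPFC was at 3.88 to 4.48 log2 CPM in B6 controls (median 4.31), at 4.07 to 4.23 in resilient mice (median 4.18) and at 3.84 to 4.26 in susceptible mice (median 4.193). The groups overlapped, and susceptible mice differed from controls by -0.13 (adjusted p = 0.524, limma), which turned to 0.14 with the prefix of the mouse ID as a covariate. Against resilient mice it was -0.05, and 0.235 with that covariate. Prefix and group nearly coincided in these B6 mice. Only the sixth control shared a prefix with susceptible mice, and only the first susceptible mouse shared one with resilient mice. Ocln was at 4.18 to 4.39 in controls (median 4.28) and at 4.01 to 4.27 in susceptible B6 mice (median 4.10), a difference of -0.15 (adjusted p = 0.105, limma), or -0.06 with that covariate. Its difference between susceptible and resilient B6 mice, -0.16 (adjusted p = 0.0824), passed without the fifth resilient mouse (0.0464) or the third susceptible mouse (0.0486). All 8 oligodendrocyte markers fell in susceptible B6 mice of the mPFC too, where 1.28% of all genes fell.

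Between the undefeated strains of the mPFC, 4 of the 10 genes were lower in D2, where 14.4% of all genes were called lower. Ocln was at 3.80 to 3.99 log2 CPM in D2 controls (median 3.96), below every B6 control, and differed by -0.34 (SE 0.05, adjusted p = 7.49e-06, limma). Abcb1a was at 5.58 to 5.72 in D2 (median 5.64) and at 5.79 to 5.89 in B6 (median 5.87), without overlap, and differed by -0.21 (adjusted p = 0.000922). Flt1 differed by -0.24 (adjusted p = 0.00127) and Slco1a4 by -0.17 (adjusted p = 0.0248), both with overlap. Slco1a4 left the calls without the second B6 control or the first D2 control, where the adjusted p reached 0.0651. Cldn5 differed by -0.21 (adjusted p = 0.125, limma) and passed without the sixth B6 control (-0.29, adjusted p = 0.03). Beside these, 8 of 8 oligodendrocyte markers (median -0.88), 3 of 6 astrocyte, 2 of 6 microglia, 2 of 8 pericyte and 2 of 10 endothelial markers were lower in D2 controls. Of the 10 endothelial markers 4 are members. The part of these markers in the difference was not tested.

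**Figure D5:**
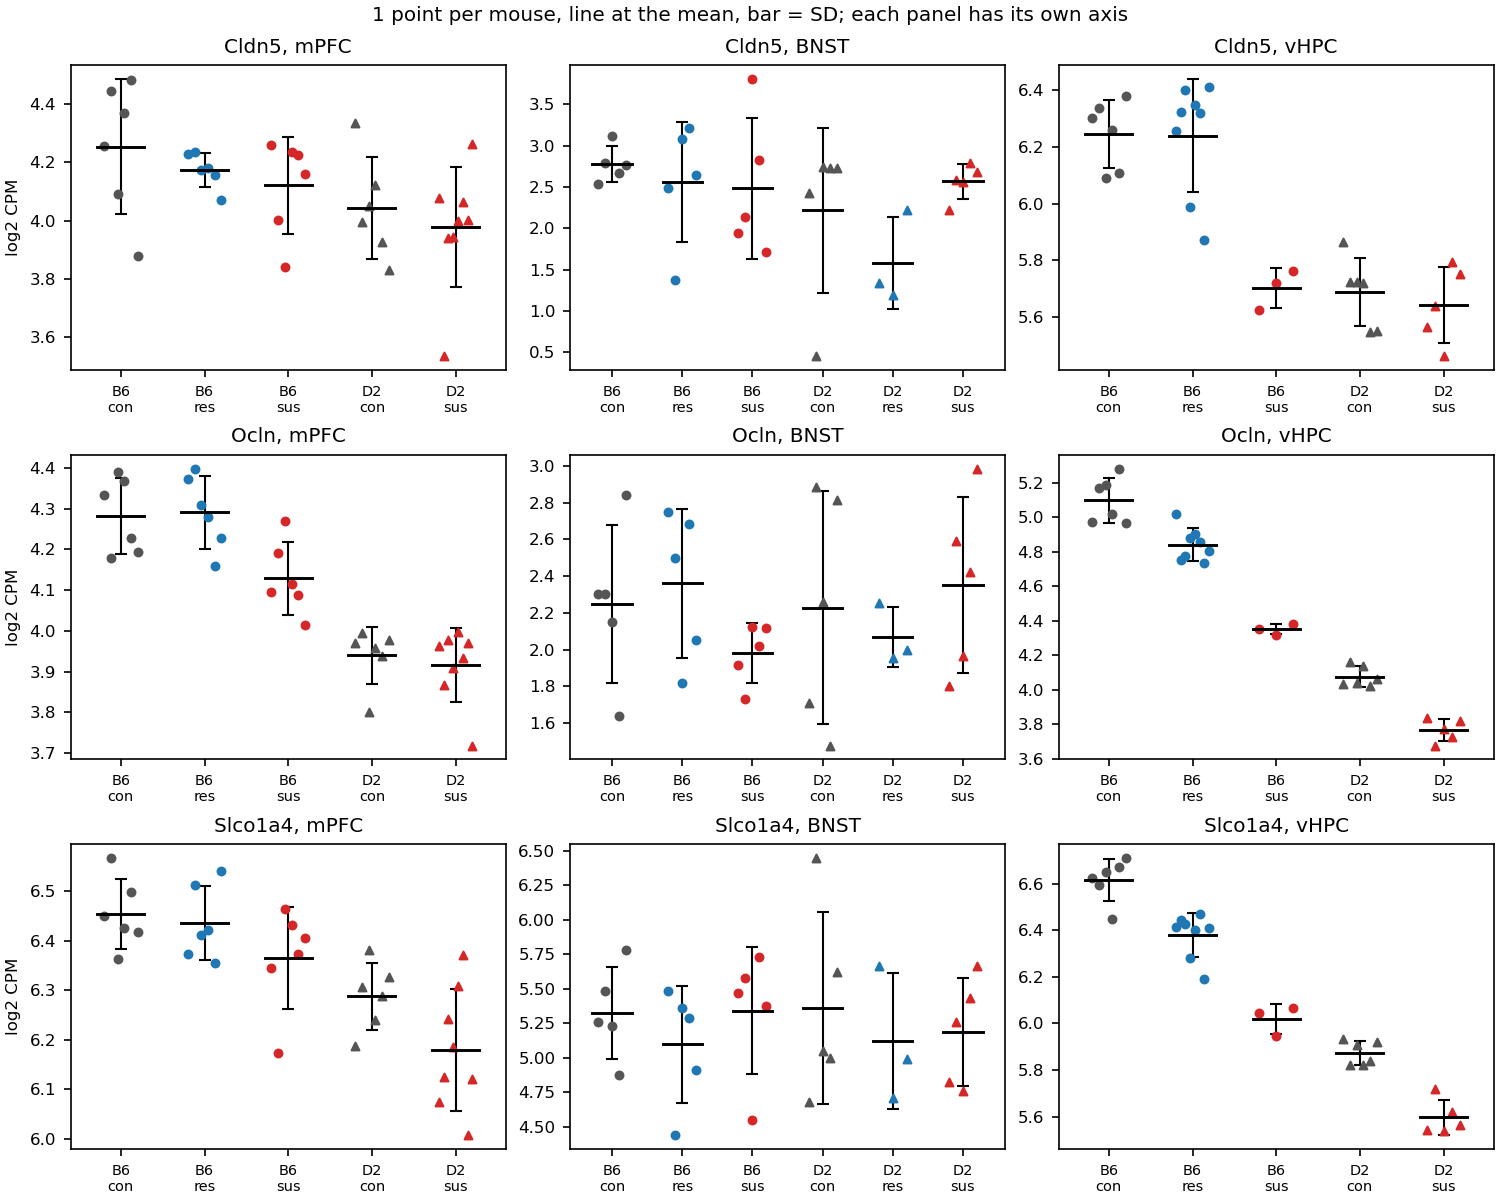
Log2 CPM (vertical axis, 1 scale per panel) of Cldn5, Ocln and Slco1a4 in the mPFC, BNST and vHPC, with 1 point per mouse, a line at the mean and a bar for the SD. In the BNST Cldn5 spreads from 0.45 to 3.81 over all groups, while in the vHPC the 3 susceptible B6 mice sit at 5.63 to 5.76.

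In the BNST, none of the 10 genes passed edgeR's quasi-likelihood test in any of the 8 comparisons. The share of all 17515 tested genes that passed was 0% in the 4 comparisons with controls, in susceptible against resilient D2 mice and in the interaction, 0.00571% in susceptible against resilient B6 mice and 2.51% between the strains. At an unadjusted p under 0.05 there was no member in resilient against control B6 mice (1.87% of all genes) and in susceptible against resilient B6 mice (7.55%). There was 1 member in susceptible against control B6 mice (Tjp1, with 6.37% of all genes), resilient against control D2 mice (Flt1, 5.44%), susceptible against control D2 mice (Tjp1, 6.03%), the strains (Mfsd2a, 13.4%) and the interaction (Tjp1, 11.4%). Cldn5 and Pecam1 passed unadjusted in susceptible against resilient D2 mice (1.31% of all genes). DESeq2 gave Tjp1 in the interaction (-0.49, adjusted p = 0.0234, against 0.0234 to 0.837 over its 7 alternatives) and no other member in any comparison, and limma on voom values after ComBat gave none.

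Claudin-5 was counted at low depth here and spread widely. Its levels in the BNST were 2.537, 2.793, 3.124, 2.665 and 2.767 log2 CPM in B6 controls, from 84 to 136 reads, and 1.943, 2.135, 3.807, 2.825 and 1.709 in B6 susceptible mice. The highest and the lowest of these 10 mice were both susceptible ones, and the groups overlapped. Resilient B6 mice had 2.490, 1.382, 3.088, 3.211 and 2.644.

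In D2 mice of the BNST, Cldn5 was at 2.428, 0.455, 2.748, 2.734 and 2.736 log2 CPM in controls, at 1.337, 1.191 and 2.218 in resilient mice and at 2.226, 2.591, 2.562, 2.791 and 2.681 in susceptible mice. All 3 resilient mice lay below all 5 susceptible mice, a difference of 0.93 (SE 0.45, adjusted p = 1, edgeR), and below the controls apart from the second one. That control held 16 Cldn5 reads and stood apart in other members too, with Cdh5 at 2.95 against 4.67 to 5.21 in the other D2 controls, Slc2a1 below the other 4 (5.65 to 6.33) and Slco1a4 at 6.45 against 4.68 to 5.62. Resilient D2 mice differed from controls in Cldn5 by -0.78 (SE 0.45, adjusted p = 0.902, edgeR), and by -1.02 (adjusted p = 0.64) without that control. The strain difference of Cldn5 was -0.36 (adjusted p = 0.695), and -0.12 without it.

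The scaffold gene Tjp1 had the lowest p of the members in the BNST. Its levels were 7.63, 7.58, 7.86, 7.74 and 7.89 log2 CPM in B6 controls and 8.10, 7.91, 7.88, 8.09 and 7.98 in B6 susceptible mice. In D2 they were 7.67, 7.80, 7.97, 8.00 and 7.89 in controls and 7.72, 7.54, 7.58, 7.55 and 7.85 in susceptible mice. The groups overlapped in both strains, with differences of 0.25 (adjusted p = 0.717, edgeR) in B6 and -0.22 (adjusted p = 0.806) in D2, and an interaction of -0.47 (SE 0.15, adjusted p = 0.179). With library sizes in place of TMM these values became 0.008, 0.081 and 0.073, so the sign in D2 and of the interaction depended on the scaling. This scaling acts on all genes, with TMM factors of 1.118 to 1.273 in D2 susceptible and 0.656 to 0.97 in B6 susceptible mice. Over the alternatives, Cdh5, Flt1, Slco1a4, Abcb1a, Slc2a1 and Mfsd2a also took both signs in susceptible against control D2 mice. Cldn5 (0.121 to 0.566), Ocln and Pecam1 stayed above 0 there.

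Further genes of the barrier were counted from lists of 11 other junction genes, 14 other barrier transporters, 20 endothelial identity and signalling genes and 5 genes of caveolae and fenestrae. In susceptible against control B6 mice of the vHPC, where 20.5% of all genes rose and 20.1% fell, 2 of the junction genes rose and 4 fell, with Cgn, encoding the tight junction protein cingulin, at 0.74 and Jam3, a junctional adhesion molecule, at -0.37. Of the transporters 4 rose and 5 fell, with Abcg2, a drug efflux pump, at -0.50 and Slc3a2, the heavy chain of amino acid transporters, at 0.30. Of the identity genes 8 fell and none rose, with the endothelial guidance receptor Robo4 at -0.73 and the endothelial sialomucin Emcn at -0.65. Of the caveolar genes 1 rose and 3 fell, with Cavin2 at -0.76 and Cav2 at -0.33.

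The same lists were counted in the other comparisons, and differences between comparisons in these counts were not tested. In resilient against control B6 mice of the vHPC, where 4.94% of all genes rose and 5.9% fell, 1 junction gene rose (Cgn, 0.35), and 1 transporter (Abcg2, -0.16), 2 identity genes (Robo4, -0.33, and the angiopoietin receptor Tek, -0.23) and 2 caveolar genes fell. In susceptible against resilient B6 mice, where 14.1% of all genes were higher and 13.6% lower, the junction list held 1 higher and 3 lower genes, the transporters 5 and 3, the identity genes 1 and 4 and the caveolar genes 0 and 1. In susceptible D2 mice, where 2.74% of all genes fell, 2 genes of the 4 lists passed, Tek at -0.23 and Cav2 at -0.26. Between undefeated strains of the vHPC, where 29.1% of all genes were lower in D2 and 30.2% higher, 13 identity genes were lower in D2 and 1 was higher, with Robo4 at -1.16 and Tek at -0.67, and 6 junction genes were lower and 3 higher. In the mPFC 3 of 19 measured identity genes were lower in D2 controls (among them Robo4, -0.33, and the VEGF receptor gene Kdr, -0.23), a share near the 14.4% over all genes. In the BNST no gene of the 4 lists passed edgeR in any comparison.

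The members did not vary as a single block among mice of a group. Over the 45 pairs of members, Pearson's r of the levels after subtraction of group means had a median of 0.14 over the 32 mPFC libraries, 0.22 over the 28 BNST libraries and 0.11 over the 28 vHPC libraries. The highest pair was Cdh5 with Flt1 in the mPFC (0.72) and in the vHPC (0.87), and Slc2a1 with Mfsd2a in the BNST (0.88). In the vHPC Cldn5 ran against Tjp1 (-0.54) and Cdh5 (-0.50). There the fourth, seventh and eighth B6 resilient mice had Cdh5 at 3.18 log2 CPM or more while the other 5 lay at 1.96 to 2.33. All genes of a library share its depth and preparation, so these values are descriptions.

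Among 16041 genes in all 3 tables, the gene most like Cldn5 was Egfl7, which encodes a protein secreted by endothelial cells. Its mean r was 0.68 over the 3 regions (vHPC 0.77, BNST 0.73, mPFC 0.55, with 88 libraries in all). Egfl7 was followed by Samd1 (0.67), Eif6 (0.67), Chmp6 (0.67) and Pard6a (0.66). The transcripts of these 5 genes held 57.1 to 67.3% G and C, as Cldn5 holds 60.5%, and the part of base composition in the likeness was not tested. Against the mean of the other 9 endothelial markers, r of Cldn5 was -0.32 over the vHPC libraries, 0.61 over those of the BNST and 0.68 over those of the mPFC. In the vHPC, Ocln had 0.26 against the endothelial markers. It had 0.62 against pericyte, 0.49 against choroid plexus, 0.47 against oligodendrocyte, 0.44 against microglia and 0.33 against fibroblast markers. Against astrocyte markers it had 0.28, blood 0.15, smooth muscle 0.04 and neuron markers -0.42. Its r against pericyte markers was 0.22 in the mPFC and 0.19 in the BNST. Slco1a4 had -0.26 against the endothelial markers in the vHPC, and the remaining members had -0.10 (Mfsd2a) to 0.75 (Flt1). Of the other members Mfsd2a was most like Cldn5, with a mean r of 0.43 at rank 662. Ocln was least like it, at -0.17.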

How the data were processed

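RNA was measured in 88 libraries of the mPFC, BNST and vHPC. Per the labels and the study's methods, the authors depleted ribosomal RNA, discarded duplicate reads, used STAR with GRCm38 as the genome and counted exonic reads per gene with HTSeq. The deposited mPFC and vHPC values are log2 CPM that the authors had passed through a low-count filter, voom and a ComBat correction for library sets (and for sequencing sets in the vHPC). The groups kept in that correction are not given in the sources used here. The BNST table holds deposited counts. Gene symbols were matched for 99.54% of mPFC, 99.09% of BNST and 99.58% of vHPC genes.

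Each region was fitted by itself with a mean per group over all its libraries, limma 3.58.1 with robust empirical Bayes in the mPFC and vHPC, and edgeR 4.0.16 with TMM and the robust quasi-likelihood test in the BNST. The BNST fit kept the 17515 genes that reached 1 CPM in 6 or more libraries. BNST levels are TMM-scaled log2 CPM with a prior count of 0.5. Two-sided p-values were adjusted by Benjamini-Hochberg over all genes tested of a comparison, and values under 0.05 were called, in 20 comparisons in all. Each library is a separate mouse within its region. The fits were tested on simulated data, in which 200 genes of susceptible B6 mice were changed by 1 on the log2 scale. Of these, 92.5% passed against controls in the mPFC, 91.5% in the vHPC and 49% in the BNST. Alternatives were DESeq2 1.42.0, limma on voom values with ComBat (sva 3.50.0) in the BNST, other filters, normalizations and moderation, covariates for the library set, the sequencing set or the prefix of the mouse ID, and leaving out each mouse. R 4.3.3, Python 3.11.15, NumPy 2.4.6, pandas 2.3.3 and matplotlib 3.10.9 were used.

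The members and lists were chosen with earlier results of these data known. Named genes are the members, at most 2 genes of each further list with the lowest p among those called in a comparison, and the 5 genes most like Cldn5 by mean Pearson r. The depth of mPFC and vHPC libraries is unknown, so precision there was taken from the spread between mice.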

Additional observations from a re-analysis of the deposited data

Results flagged for a closer look

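A gap test on the highest and lowest mouse of each group of 4 to 10 mice (Dixon, 95%) was applied to the 10 genes in 140 groups and marked 12 values, where chance marks about 1 in 20 groups. In the mPFC these were Cldn5 at 3.53 log2 CPM in the second susceptible D2 mouse, Ocln at 3.80 in the third D2 control and at 3.72 in the eighth susceptible D2 mouse, Tjp1 at 7.38 in the sixth resilient B6 mouse, and Flt1 at 6.32 in the third resilient B6 mouse and at 6.37 in the third D2 control. In the BNST they were Cldn5 at 0.45 and Cdh5 at 2.95 in the second D2 control, and Abcb1a at 5.24 in the first resilient and at 4.08 in the third susceptible B6 mouse. In the vHPC they were Pecam1 at 4.22 in the second D2 control and Slc2a1 at 6.85 in the eighth resilient B6 mouse. In the vHPC, the difference in Ocln between susceptible and control mice differed between the strains by an interaction of 0.44 (adjusted p = 0.012, limma). This call was lost under some alternatives, as described above.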

How the results depend on the processing

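Within a region no paired analysis was possible because every animal was in 1 group only there and the labels hold no replicate numbers and no litter. The 7 mice that gave tissue of both the mPFC and the vHPC were not analyzed as pairs across regions. No result changed sign while called. With library set as a covariate in the vHPC, the number of the 10 genes called was 0 in resilient and 1 in susceptible B6 mice against controls, 0 in susceptible D2 mice against controls, 0 in susceptible against resilient B6 mice, 4 between strains and 0 in the interaction. Sequencing set as a covariate gave 1 in resilient B6 mice. Sequencing set 1 alone gave 0 in resilient B6 mice, in susceptible D2 mice, in susceptible against resilient B6 mice and in the interaction, with as few as 1 defeated mouse in a group, which is assumed to vary like the others. The vHPC interaction gave 2 genes without the robust option, with a trend, with a mean of at least 1 log2 CPM or after quantile normalization, and 3 with only the groups compared in the fit. DESeq2 gave 1 in the BNST interaction.

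Leaving out each mouse in turn, the count ranged from 3 to 5 between the mPFC strains (3 without the second B6 or the first D2 control, 5 without the sixth B6 control) and from 0 to 1 in susceptible against resilient B6 mice of the mPFC. In the vHPC it ranged from 2 to 5 in resilient B6 mice, from 5 to 7 in susceptible B6 mice, from 3 to 5 in susceptible against resilient B6 mice, from 8 to 10 between strains and from 0 to 2 in the interaction. It stayed at 2 in susceptible D2 mice of the vHPC and at 0 elsewhere. Of the values of single genes, 3900 kept their side of the threshold, 33 passed newly and 47 no longer passed. Mouse ID prefix as a covariate gave no value for the strain comparisons and for those with resilient D2 mice. Causes were not tested.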
